A study of Mus musculus with 194 samples.

Results

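Lineages of activated CD8+ T-cells that expressed little granzyme B were compared with lineages that expressed much of it. Granzyme B, the product of Gzmb, is a serine protease that cytotoxic T-cells keep in granules and release together with perforin to kill target cells. Single founding cells had grown on a microfluidic chip over 2 generations. A lineage was the set of cells tied together by the recorded sister and cousin relations. Cells not tied by these labels were counted as separate lineages, and whether any of them shared a founder was not tested. Each cell gave 1 Smart-Seq2 library, made as full-length cDNA from its messenger RNA. Lineages were chosen by their level of Gzmb. The natural log of TPM + 1 was taken per cell and averaged per lineage, and a lineage was low with a mean Gzmb below 5, high with a mean of 7 or above, and middle in between. Of 194 libraries in the series, 97 CD8+ T-cells in 34 lineages were retained, and 65 of them fell into the low and high groups. The low group held 9 lineages with 30 cells, the high group 12 lineages with 35 cells, and the middle group 13 lineages with 32 cells. Of the high lineages 1 had 1 cell, 4 had 2, 2 had 3 and 5 had 4. Of the low lineages 2 had 2 cells, 2 had 3 and 5 had 4.

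The CD8+ T-cells were isolated with magnetic beads from spleens of C57BL/6J mice of both sexes, 6 animals of 4 to 16 weeks in all, and were activated for 30 h with antibodies against CD3, bound to the plate at 5 µg/ml, and against CD28, in solution at 2 µg/ml, before growth on the chip in medium with 100 U/ml IL2. No treatment or genotype separated low from high, since Gzmb itself chose the groups. The labels name neither the mouse nor the culture of a lineage, so a p-value here covers the spread between lineages and not that between mice.

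Naive CD8+ T-cells carry little granzyme B. Signals from the T-cell receptor, from costimulation and from IL2 induce it while the cells leave the naive state, and the transcription factors T-bet, Eomes and the AP-1 family, among them the BATF proteins, are known to take part in effector differentiation. The same activation makes a T-cell grow, with more ribosomes, more mitochondrial protein import and more glycolysis.

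The levels of Gzmb that chose the groups are given as a description. Gzmb (chr14:56258838-56262260, minus strand, GRCm38) had lineage means from 0.20 to 4.93 in the low group with a median of 2.23, and from 7.07 to 8.82 in the high group with a median of 7.85. The middle lineages ran from 5.58 to 6.99. The low lineage nearest to the limit of 5 stood at 4.93 and the first middle lineage at 5.58, while the last middle lineage at 6.99 and the first high lineage at 7.07 lay on either side of the limit of 7. Low lineages were not uniformly negative, since Gzmb was above 0 TPM in 20 of their 30 cells and 8 of these cells reached 5 or more. A cell at 0 occurred in 6 of the 9 low lineages and in none of the 25 others. The lineage of CD8_1, for example, ran from 0.00 to 6.25 between its 4 cells, and that of CD8_36 from 0.00 to 5.61 between its 2. The SD between the cells of a lineage had a median of 2.53 in the low group, 0.36 in the middle group and 0.37 in the high group. In the high group Gzmb was above 0 TPM in 35 of 35 cells, with a median of 2447 TPM. L1210 cells, a mouse lymphocytic leukemia line of the same series, had Gzmb above 0 TPM in 1 of 81 cells, at 5.01 TPM.

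**Figure D1:**
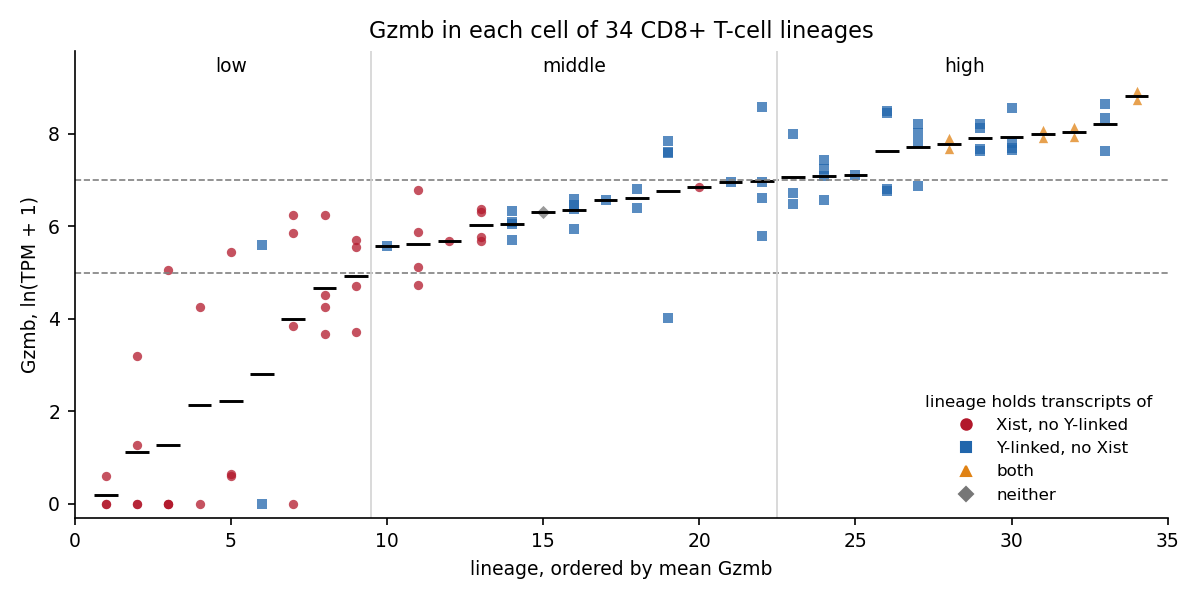
Gzmb in ln(TPM + 1) of every retained CD8+ T-cell (points) by lineage, ordered by the lineage mean (black bars), with dashed lines at the limits of 5 and 7. Colour and shape show whether the lineage held Xist, Y-linked transcripts, both or neither: 8 of 9 low lineages held Xist alone and 8 of 12 high lineages Y-linked transcripts alone.

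The groups differed in sex as far as transcripts show it. Xist, the RNA of the inactive X chromosome of female cells, exceeded 1 on the ln(TPM + 1) scale without Y-linked transcripts in 8 of 9 low lineages and in 0 of 12 high lineages. The summed Y-linked genes Eif2s3y, Ddx3y, Kdm5d and Uty exceeded 1 without Xist in 1 low lineage, that of CD8_36, and in 8 high lineages. The other 4 high lineages, those of CD8_13, CD8_14, CD8_16 and CD8_17, held both, although the cells of a mouse normally carry either kind and not both, and of their 8 libraries 7 had Xist above 1, 6 had Y-linked transcripts above 1 and 5 had both. Whether labels, wells or sister relations of these libraries were mixed up was not tested. The middle lineages divided into 4 with Xist alone, 8 with Y-linked transcripts alone and 1 with neither. The sex of the cells, the mouse they came from and the level of granzyme B cannot be told apart between low and high lineages.

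Library measures moved with the groups too. The number of genes above 0 TPM per cell averaged 5881 ± 940 in low lineages (SD, n = 9) and 7290 ± 1125 in high lineages (SD, n = 12), a difference of 1409 genes with p = 0.00721 in an exact permutation test, 2-sided. Rn45s, the precursor of ribosomal RNA, took 24.6% ± 8.62 of the TPM in low and 17.5% ± 5.42 in high lineages (p = 0.0358, exact permutation test, 2-sided), and p ran from 0.0182 to 0.0817 when single lineages were left out. Hours since division were 5.10 ± 3.01 in low (SD, n = 9) and 4.13 ± 1.38 in high lineages (SD, n = 11), with p = 0.353 in the same exact test. TPM keep no sequencing depth, and the quality metrics that the paper gives for each library were not used here. The number of detected genes stood in for depth and is not a direct measure of it.

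**Figure D2:**
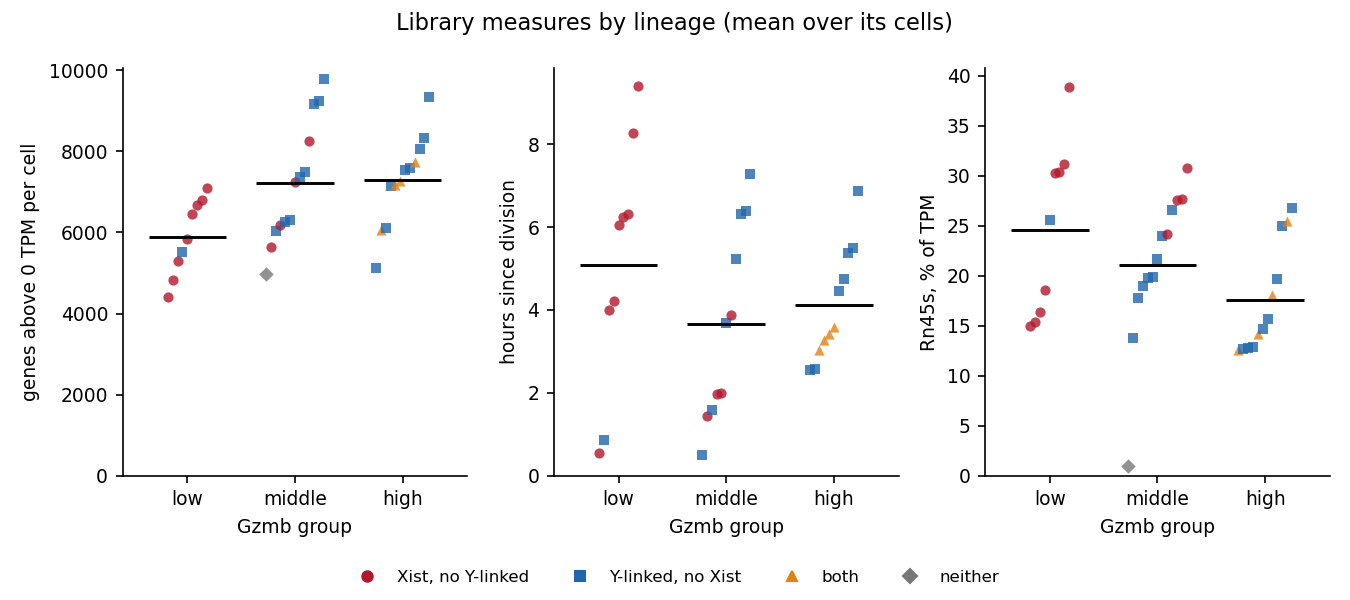
Lineage means of the number of genes above 0 TPM, of the hours since division and of the Rn45s share of the TPM in % for low, middle and high lineages, with group means as black bars. Low lineages sat between 4405 and 7107 detected genes and high lineages between 5123 and 9348.

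T-cell markers were present throughout, with 1 exception. Cd3e was above 0 TPM in 30 of 30 low and 35 of 35 high cells, and Cd8a in 30 low and 32 high cells. The high lineage of CD8_83 lacked the CD8 coreceptor, with a mean of 0.26 for Cd8a and 0.00 for Cd8b1 over its 4 cells against 6.21 for Cd3e, whereas the next lowest high lineage had 4.75 for Cd8a. Cd4 was above 0 TPM in 0 low and 2 high cells. Of 8 B-cell markers only Cd79a and Cd79b passed the filter on low values, with differences of -0.05 and 0.52 that did not pass the test, and Pax5, Blk and Ebf1 were listed at 0 in all 65 cells. The summed TPM of the B-cell markers ranged from 0.00 to 70.6 in low and from 0.80 to 37.4 in high lineages. Of 12 myeloid markers in the table, 8 were listed at 0 in all 65 cells, and their sum stayed at or below 20.9 TPM in low and 5.80 TPM in high lineages. The sums of NK, gamma delta T-cell, erythroid and CD4 markers stayed at or below 33.2 TPM in every lineage of both groups.

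Apart from Gzmb, many more genes were higher in high lineages than in low lineages. Of 9996 genes tested with limma on lineage means, 352 (3.52%) had a Benjamini-Hochberg adjusted p under 0.05, of which 346 (3.46%) were higher in high lineages and 6 (0.06%) were higher in low lineages. At an unadjusted p under 0.05 there were 1791. The median difference over all genes was 0.22 and 70.6% of the genes had a positive one, so the whole distribution was shifted toward the high lineages along with their larger number of detected genes. With the number of detected genes as a covariate the counts became 113 higher (1.13%) and 53 lower (0.53%), and with each lineage centred on its mean over genes 77 higher (0.77%) and 22 lower (0.22%). Of the 346 genes called higher, 95 were also called with the covariate and 77 after centring. With Xist detection as a covariate 157 were higher (1.57%) and 4 lower (0.04%), of which 116 and 2 were among the genes called without it. In that fit only the 4 high lineages with both Xist and Y-linked transcripts and the low lineage of CD8_36 set Xist apart from the groups. It therefore cannot separate sex from the level of Gzmb. Without the 4 high lineages that held both Xist and Y-linked transcripts 180 were higher (1.80%) and 1 lower (0.01%), and without these and the lineage of CD8_83 172 were higher (1.72%) and 1 lower (0.01%). Without the lineage of CD8_83 alone 407 were higher and 5 lower. All 352 differences kept their direction in each of these fits. The count also rested on single lineages, at 224 without the low lineage of CD8_5, 225 without the low lineage of CD8_49 and 219 without the high lineage of CD8_91. CD8_65 was labelled a cousin of CD8_59 without the reverse, and with both in 1 lineage 8 low lineages remained and 282 genes were called.

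Timm8a1 and Ppan had the lowest p-values. Timm8a1, a small chaperone of protein import in the mitochondrial intermembrane space (chrX:134537256-134541865), ran from 1.49 to 3.95 in low lineages with a median of 2.82 and from 4.20 to 5.82 in high lineages with a median of 4.86. Every high lineage was above every low lineage. The difference was 2.21 ± 0.32 (SE), a 9.14-fold ratio on the TPM + 1 scale, with an adjusted p of 0.000172 (limma, Benjamini-Hochberg). Chchd4, the oxidoreductase that folds proteins in that same space, lay between 0.00 and 2.94 in low and between 3.06 and 5.67 in high lineages, again without overlap (difference 2.37 ± 0.39, limma adjusted p = 0.000656). Mphosph6, a protein of the RNA exosome that trims ribosomal RNA, had a median of 1.86 and at most 2.71 in low lineages against a median of 3.85 and at most 4.54 in high lineages, and its groups did not overlap either (difference 1.97 ± 0.33, limma adjusted p = 0.000671).

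In all, 7 of 9996 genes (0.07%) had every high lineage above every low lineage and 0 had the reverse. The other 4, named after their values were seen, were Mettl16, an RNA methyltransferase, Elof1, a transcription elongation factor, Gadd45gip1, a component of the mitochondrial ribosome, and Rrp1b, a nucleolar protein. Their differences ran from 1.19 ± 0.27 for Gadd45gip1 to 1.86 ± 0.37 for Mettl16, and all 7 passed the limma test.

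In the other 9 of the 12 genes of lowest p, between 1 and 6 high lineages lay below the highest low lineage. Ppan, a nucleolar factor for the large ribosomal subunit, ran from 0.00 to 3.40 in low with a median of 1.98 and from 3.10 to 5.43 in high lineages with a median of 4.46, and 11 of 12 high lineages were above the highest low lineage (difference 2.58 ± 0.37, limma adjusted p = 0.000172). Dnph1, an enzyme that cleaves deoxynucleotides, was at a median of 0.77 in low and 3.61 in high lineages, and was above 0 TPM in 10 of 30 low and 33 of 35 high cells. Mrpl38 and Mrps18b, both proteins of the mitochondrial ribosome, differed by 2.20 ± 0.35 and 2.09 ± 0.34. Prdx4, the peroxiredoxin of the endoplasmic reticulum, differed by 2.48 ± 0.41 and was called in 47 of 47 alternative fits. The largest differences of the 12 belonged to 1110038B12Rik, a snoRNA host transcript, at 2.93 ± 0.45, and to the predicted gene Gm11974 at 2.82 ± 0.48. Limma adjusted p-values of these 6 genes lay between 0.000387 and 0.000776.

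Among the 12 were also a cytokine receptor chain and a transcription factor of lymphocyte differentiation. Il12rb1, the receptor chain shared by IL12 and IL23 (chr8:70808449-70821424), ran from 0.00 to 2.33 in low with a median of 1.54 and from 2.18 to 5.06 in high lineages with a median of 3.87. It was above the highest low lineage in 11 of 12 high lineages (difference 2.48 ± 0.41, limma adjusted p = 0.000656). Irf8, a transcription factor of the interferon regulatory family (chr8:120736358-120756694), ran from 0.60 to 4.31 in low with a median of 1.50 and from 3.44 to 5.14 in high lineages with a median of 4.26. Low lineages overlapped with the high ones in Irf8, since 6 high lineages were above the highest low one (difference 2.37 ± 0.40, limma adjusted p = 0.000709).

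The promoters of 4 genes are shown because Gzmb chose the groups and Timm8a1, Prdx4 and Irf8 were among the genes of lowest p. They are the 250 bases before the RefSeq start on GRCm38.p6, in the direction of transcription, at chr14:56262335-56262584 on the minus strand for Gzmb, chrX:134541671-134541920 on the minus strand for Timm8a1, chrX:155338461-155338710 on the minus strand for Prdx4 and chr8:120736108-120736357 on the plus strand for the first of 2 Irf8 starts. Capitals mark CACGTG, the E-box of MYC and related factors, TGANTCA of AP-1, TGTGGT or its reverse complement ACCACA of RUNX, and TTCNNNGAA of STAT factors, on both strands.

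Gzmb: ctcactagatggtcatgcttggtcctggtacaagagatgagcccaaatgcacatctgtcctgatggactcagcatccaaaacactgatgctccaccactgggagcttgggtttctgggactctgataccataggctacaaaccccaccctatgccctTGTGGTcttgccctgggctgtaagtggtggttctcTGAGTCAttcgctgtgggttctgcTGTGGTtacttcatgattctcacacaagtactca

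Timm8a1: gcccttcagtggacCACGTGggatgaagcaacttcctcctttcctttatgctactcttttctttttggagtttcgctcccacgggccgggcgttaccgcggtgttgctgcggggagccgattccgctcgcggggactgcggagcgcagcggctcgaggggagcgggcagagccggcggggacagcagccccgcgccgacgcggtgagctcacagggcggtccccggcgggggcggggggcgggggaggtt

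Prdx4: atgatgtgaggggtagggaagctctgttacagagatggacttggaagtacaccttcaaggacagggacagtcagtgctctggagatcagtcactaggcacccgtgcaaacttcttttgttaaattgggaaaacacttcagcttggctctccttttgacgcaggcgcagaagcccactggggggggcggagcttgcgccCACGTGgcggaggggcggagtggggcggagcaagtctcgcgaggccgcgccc

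Irf8: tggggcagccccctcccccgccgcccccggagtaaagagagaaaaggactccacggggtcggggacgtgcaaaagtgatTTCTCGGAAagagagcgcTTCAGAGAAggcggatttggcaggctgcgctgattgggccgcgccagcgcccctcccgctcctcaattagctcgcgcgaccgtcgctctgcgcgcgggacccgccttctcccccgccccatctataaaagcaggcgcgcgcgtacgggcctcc

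The Gzmb window held TGTGGT from 93 to 88 and from 34 to 29 bases before the start and TGANTCA from 58 to 52 bases before it. CACGTG stood at 236 to 231 bases before the start of Timm8a1 and at 52 to 47 before that of Prdx4, and TTCNNNGAA stood at 171 to 163 and at 153 to 145 bases before that of Irf8. Among the other genes of lowest p, Dnph1 held CACGTG, Chchd4 held TTCNNNGAA and Mphosph6 held ACCACA. Ppan, 1110038B12Rik and Mrps18b held none of these motifs, and the windows of these other genes are not shown. Of the 346 genes called higher, 262 had a promoter in the table. CACGTG occurred in 39 of these 262 genes (14.9%), in 10.4% of 7472 tested genes with a promoter and in 6.86% of all 27025 genes of the table. TTCNNNGAA occurred in 8.40%, 7.28% and 8.13% of the same sets, TGANTCA in 5.73%, 4.91% and 7.82%, and TGTGGT in 13.7%, 13.04% and 15.9%. These matches describe letters in a window and were not tested.

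In 12 of the 12 genes of lowest p, which were chosen as higher in high lineages, the mean of the middle lineages was closer to the high mean, for example at 4.46 for Timm8a1 between 2.75 in low and 4.96 in high lineages. For Mphosph6 the means were 1.89, 3.63 and 3.86 from low to middle to high. For 1110038B12Rik and Gm11974 the middle means, 5.02 and 4.55, were above the high means of 4.85 and 4.35. Genes higher in low lineages could go the other way, with means from low to middle to high of 1.26, 1.10 and 0.15 for Scml4 and 4.37, 3.80 and 3.04 for Add1.

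The middle group also allowed comparisons within lineages of 1 kind of sex-linked transcripts, with few lineages each, and they share lineages with the comparison above. Among lineages with Xist alone, 4 middle against 8 low lineages gave 1 gene of 9981 at a limma adjusted p under 0.05 (0.01%) and 1027 at an unadjusted p under 0.05. The gene was Gm9846, named after its values were seen, which was higher by 3.40 ± 0.53 in middle lineages (limma adjusted p = 0.00608). In this comparison the middle minus low difference was 1.28 for Timm8a1 (unadjusted limma p = 0.0184, adjusted 0.415), 1.91 for Ppan (0.00933, adjusted 0.367), 2.52 for Il12rb1 (0.000796, adjusted 0.294), 3.12 for Gm11974 (0.000112, adjusted 0.160) and 0.04 for Prdx4 (0.952, adjusted 0.986). Among lineages with Y-linked transcripts alone, limma called 0 of 9996 genes between 8 high and 8 middle lineages, with 355 at an unadjusted p under 0.05. The high minus middle difference there was 0.19 for Timm8a1 (unadjusted limma p = 0.491) and 0.91 for Irf8 (0.0279), both with an adjusted p of 0.999.

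**Figure D3:**
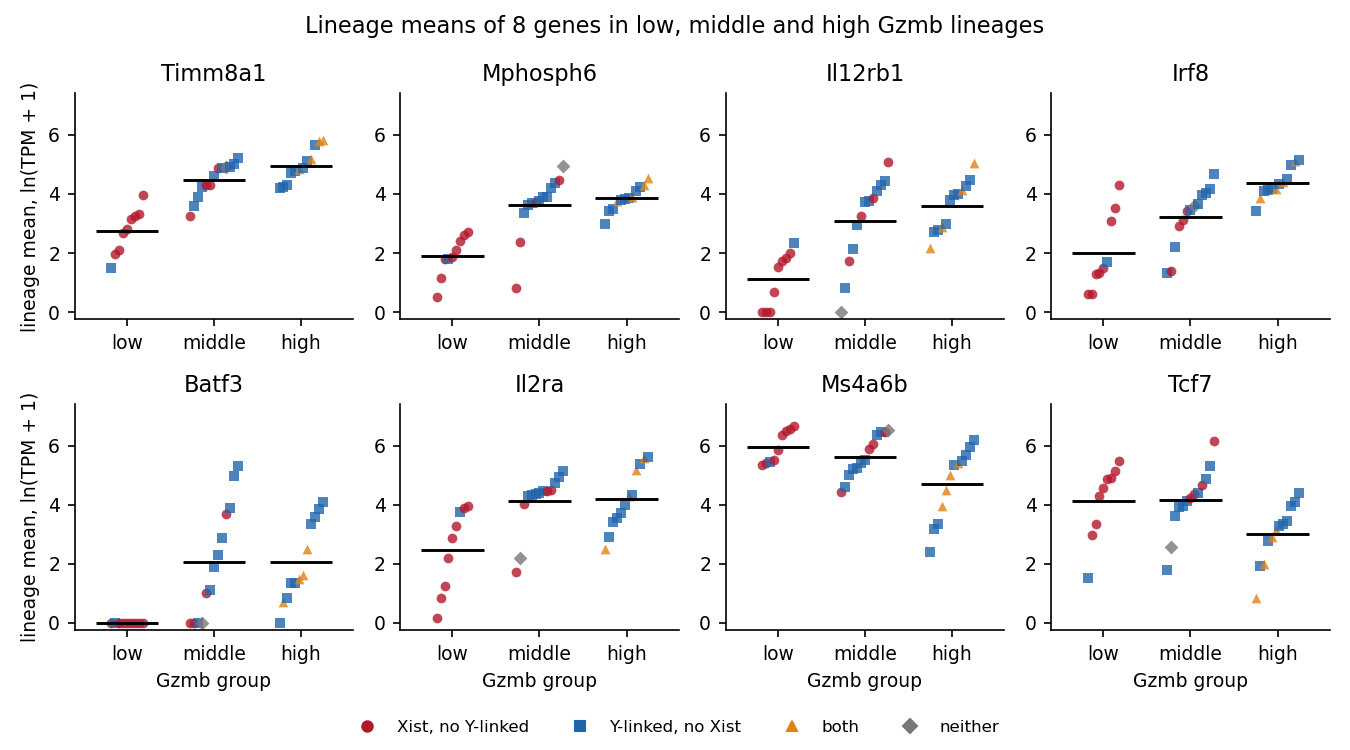
Lineage means in ln(TPM + 1) of 8 genes in low, middle and high lineages, 1 point per lineage, with group means as black bars and colour for the sex-linked transcripts. Timm8a1 and Mphosph6 did not overlap between low and high lineages, Batf3 was at 0 in all 9 low lineages, and Tcf7 overlapped widely.

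Families of the same function were counted after the values were seen, so their counts are a description beside the 3.46% of all genes. Of 76 tested mitochondrial ribosome genes with a symbol in Mrpl or Mrps, 12 were called higher in high lineages and 0 lower, with a median difference of 0.76. Of 23 mitochondrial import genes with a symbol in Timm or Tomm, 8 were called higher, with a median of 0.76, among them Timm8b, Timm13, Timm23 and Tomm40. Of 55 genes of nucleolar ribosome assembly, 19 were called higher, with a median of 0.95, among them Npm1, Nop56, Nop2, Pes1 and Bop1. Of 48 listed cytosolic ribosomal protein genes, 5 were called higher, among them Rpl30, Rpl38, Rpl27 and Rps21, with a median of 0.27 that stood close to the 0.22 of all genes. Rpl30 was 5.27 ± 0.45 in high lineages against 3.35 ± 1.53 in low ones (difference 1.92 ± 0.40, limma adjusted p = 0.00489). After centring, the ribosomal protein median was -0.00 and 1 member, Rpl30, was called.

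Transcription factors of effector cells had the highest median of the T-cell lists in the main comparison. Of 18 tested, 5 were called higher in high lineages (27.8%, against 3.46% of all genes), namely Irf8, Batf3, Tbx21, Bhlhe40 and Nfil3, and 0 were called lower. The median was 0.94, against 0.22 for all genes. With detected genes as a covariate it was 0.52, below the 0.83 of the killer cell receptors. Batf3, a BATF-family partner of JUN proteins, was listed at 0 TPM in all 30 cells of the low lineages. In high lineages it ran from 0.00 to 4.09 with a median of 1.56 and was above 0 TPM in 23 of 35 cells, and 11 of 12 high lineages were above 0 (limma adjusted p = 0.00456). Batf3 passed the gene filter only through cells of the high and middle lineages, so its call is a description of where it was detected. The 27.8% includes it and is a description to that extent. Tbx21, which encodes T-bet, ran from 0.00 to 3.26 in low with a median of 2.58 and from 2.21 to 5.11 in high lineages with a median of 3.53. The groups overlapped, with 9 high lineages above the highest low one (difference 1.55 ± 0.44, limma adjusted p = 0.0385). Bhlhe40, a factor tied to T-cell activation and cytokine production, differed by 1.49 ± 0.41 (limma adjusted p = 0.0349).

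Other factors of the list did not pass. Id2 was 4.12 ± 1.01 in high and 2.44 ± 1.74 in low lineages (limma adjusted p = 0.0545), and Batf was 3.18 ± 1.18 and 1.92 ± 0.69 (adjusted p = 0.0932, limma). Eomes, the T-box relative of T-bet, was 1.16 ± 0.99 and 0.74 ± 1.16, with an adjusted limma p of 0.652. Prdm1, the gene of BLIMP1, did not pass the filter and was above 0 TPM in 0 low and 4 high cells. With detected genes as a covariate, after centring, and with TPM rescaled without Rn45s, Irf8 and Batf3 were the 2 members called, and with Xist detection as a covariate Irf8 was the only one. The limit given above for Batf3 holds in these fits too.

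The alpha and beta chains of the IL2 receptor were higher in high lineages, and the shared gamma chain was not called, with Il2rg at 6.39 ± 0.39 in high and 6.65 ± 0.49 in low lineages (limma adjusted p = 0.502). Of 22 genes of the IL2 receptor and of known STAT5 targets, 3 were called higher (13.6%, against 3.46% of all genes), Il2ra, Il2rb and Socs2, and 0 lower. The median was 0.38, against 0.22 for all genes. With detected genes as a covariate it was -0.09, against -0.10 for all genes. Il2ra, the high-affinity chain, ran from 0.16 to 3.96 in low with a median of 2.88 and from 2.50 to 5.61 in high lineages with a median of 4.15 (difference 1.74 ± 0.47, limma adjusted p = 0.0297). Il2rb, the signalling chain, ran from 3.37 to 5.81 in low and from 4.92 to 6.84 in high lineages (difference 1.06 ± 0.28, limma adjusted p = 0.0268). Both overlapped, with 7 and 9 high lineages above the highest low one. Socs2, a feedback inhibitor that STAT5 induces, differed by 1.44 ± 0.41 (limma adjusted p = 0.0417). None of the 3 was called with detected genes or Xist as a covariate, after centring, or without the 4 lineages of both kinds, where limma adjusted p-values for Il2ra were 0.319, 0.126, 0.0827 and 0.0897. Pim2 and Bcl2l1, survival genes downstream of STAT5, differed by 1.70 ± 0.56 and 1.41 ± 0.45 without passing (limma adjusted p = 0.0782 and 0.0703).

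No other gene of the cytotoxic granules passed the test. Of 17 tested granule and killing genes 0 were called by limma in either direction, against 3.52% of all genes. In a list this short 0 calls is near that share. The median was 0.45, against 0.22 for all genes. Perforin, Prf1, was above 0 TPM in 3 of 30 low and 3 of 35 high cells, with lineage means of at most 1.38 and 1.36, and its difference was -0.15 ± 0.20 (limma adjusted p = 0.768). Gzma and Gzmc were listed at 0 in all low cells and were above 0 TPM in 6 and 5 of 35 high cells, too few for the filter. Fasl, the ligand of the death receptor Fas, was above 0 TPM in 4 low and 20 high cells with medians of 0.00 and 1.96 per lineage, and did not pass either (difference 1.35 ± 0.43, limma adjusted p = 0.0702). Srgn, the proteoglycan that holds granzymes in granules, was 5.17 ± 0.77 in high and 4.34 ± 0.86 in low lineages (limma adjusted p = 0.147), and had an adjusted p of 0.0467 without the 4 lineages of both kinds. The exact rank-sum test also called 0 of Prf1, Fasl and Srgn.

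Among 8 cytokine and chemokine genes tested, 1 was called (12.5%, against 3.46% of all genes called higher). Tnfsf11, which encodes RANK ligand, was above 0 TPM in 8 low and 25 high cells and differed by 1.74 ± 0.51 (limma adjusted p = 0.0441). The call was lost after centring, with detected genes as a covariate, without Rn45s and without the 4 lineages of both kinds, with limma adjusted p-values of 0.120, 0.243, 0.0623 and 0.205. Lta and Tnf, neighbours on chromosome 17, differed by 1.15 ± 0.41 and 1.30 ± 0.51 without passing (limma adjusted p = 0.101 and 0.152). Ifng was above 0 TPM in 1 low and 5 high cells and was not tested.

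A pair of receptors of activated T-cells was higher in high lineages. Of 20 inhibitory and costimulatory receptors, 2 were called higher (10.0%, against 3.46% of all genes) and 0 lower, with a median of 0.23. Tnfrsf9, the costimulatory receptor 4-1BB, ran from 0.00 to 2.23 in low with a median of 0.97 and from 0.00 to 6.58 in high lineages with a median of 3.62. The high lineages spread widely, and 9 of 12 were above the highest low lineage (difference 2.53 ± 0.57, limma adjusted p = 0.00982). Cd160, a receptor for HVEM on killer cells, ran from 0.00 to 2.72 in low and from 1.12 to 4.29 in high lineages (difference 1.87 ± 0.43, limma adjusted p = 0.0121). Tnfrsf9 was not called with detected genes as a covariate (limma adjusted p = 0.0739), nor Cd160 after centring or without the 4 lineages of both kinds (limma adjusted p = 0.0613 and 0.0644). Ctla4, the inhibitory receptor for CD80 and CD86, had a difference of the other sign, with a median of 3.58 in low and 1.58 in high lineages (difference -1.65 ± 0.53). Its limma adjusted p was 0.0706, against 0.0447 with detected genes as a covariate and 0.0464 after centring.

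Klrk1, which encodes the killer receptor NKG2D, was seldom detected in low lineages. It was above 0 TPM in 3 of 30 low cells and 27 of 35 high cells, with lineage means of at most 0.49 in low and a median of 1.70 in high lineages, 10 of which were above the highest low one (difference 1.96 ± 0.49, limma adjusted p = 0.0198). Klrk1 passed the gene filter mostly through cells of the high and middle lineages, so its call largely describes where it was detected. It was the only called one of 11 killer cell receptor genes tested (9.09%, against 3.46% of all genes called higher), whose median was 0.70. The call was lost after centring and with Xist as a covariate (limma adjusted p = 0.0829 and 0.172). Klrd1, the CD94 chain, differed by 1.94 ± 0.65 without passing (limma adjusted p = 0.0827). Klrg1, Klrb1c, Ncr1 and Tyrobp were listed at 0 in all 65 cells.

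Genes of T-cell receptor signalling, homing and interferon response had 1 call each, shares of 4.55%, 3.03% and 4.35% against 3.46% of all genes called higher. Of 22 receptor signalling genes Cd69, an early activation antigen, was called higher (difference 1.70 ± 0.43, limma adjusted p = 0.0202), and the median was 0.03. Of 33 homing, adhesion and cytoskeleton genes Tubb6, a beta tubulin, was called higher (difference 2.08 ± 0.57, limma adjusted p = 0.0315), with a median of 0.07. Tubb6 was at 0 in most low lineages, so its call largely describes where it was detected. Cd44 and Ly6c2, antigens of activated and memory cells, differed by 1.39 ± 0.43 and 2.62 ± 0.80, with limma adjusted p-values of 0.0603 and 0.0585. Ly6c2 spanned 0.00 to 7.54 within the low lineages alone. Of 23 interferon response and class I genes Bst2, also known as tetherin, was called (difference 1.42 ± 0.38, limma adjusted p = 0.0313), with a median of 0.03. None of Cd69, Tubb6 and Bst2 was called after centring or with detected genes as a covariate, where limma adjusted p-values ran from 0.0556 to 0.190, and neither Tubb6 nor Bst2 was called with Xist as a covariate (limma adjusted p = 0.241 and 0.584). Cd69 was also lost without the 4 lineages of both kinds (limma adjusted p = 0.108), and Bst2 without Rn45s (0.0503).

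None of the genes of memory and naive cells passed the test. Of 24 tested 0 were called by limma, which in a list this short is near the 3.52% of all genes. A negative difference was found in 20 of them, with a median of -0.49 against 0.22 for all genes. Ccr7, the receptor that guides naive cells to lymph nodes, ran from 4.87 to 6.83 in low with a median of 6.28 and from 1.41 to 6.50 in high lineages with a median of 5.33 (difference -1.15 ± 0.40, limma adjusted p = 0.0967). Tcf7, the gene of TCF1, was 4.12 ± 1.27 in low, 4.15 in middle and 3.01 ± 1.02 in high lineages (difference -1.11 ± 0.44, limma adjusted p = 0.159). Il7r, the IL7 receptor chain of resting and memory cells, had a positive difference of 0.46 ± 0.32 (limma adjusted p = 0.482). With detected genes as a covariate 4 members were called lower, Klf3, Ccr7, Slamf6 and Dgka, and after centring Klf3 alone.

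Some glycolytic enzymes were higher in high lineages, by less than a unit of the ln scale. Of 22 glycolysis and hypoxia genes 4 were called higher (18.2%, against 3.46% of all genes) and 0 lower. A positive difference was found in 21 of them, against 70.6% of all genes, and the median was 0.61, against 0.22 for all genes. Ldha, lactate dehydrogenase A, ran from 6.89 to 8.08 in low with a median of 7.59 and from 7.85 to 8.50 in high lineages with a median of 8.09, 6 of which were above the highest low lineage (difference 0.56 ± 0.12, 1.74-fold, limma adjusted p = 0.00917). Mif, Pgam1 and Aldoa differed by 0.71 ± 0.19, 0.68 ± 0.19 and 0.56 ± 0.16, with limma adjusted p-values from 0.0329 to 0.0386. After centring 0 of the 22 were called by limma, with Ldha at an adjusted p of 0.489.

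No member of the cell cycle lists passed the test. Limma called 0 of 24 genes of G1/S and replication and 0 of 29 of G2 and mitosis, against 3.52% of all genes. In lists this short 0 calls is near that share. The medians were 0.04 and 0.05, against 0.22 for all genes. E2f2, an activating E2F factor, was the member of lowest p, at 3.25 ± 0.88 in low and 2.06 ± 0.93 in high lineages (limma adjusted p = 0.0944), and it was called lower both after centring and with detected genes as a covariate. Ccnb2, a mitotic cyclin, was 5.47 ± 0.83 and 5.05 ± 0.51 (limma adjusted p = 0.450).

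**Figure D4:**
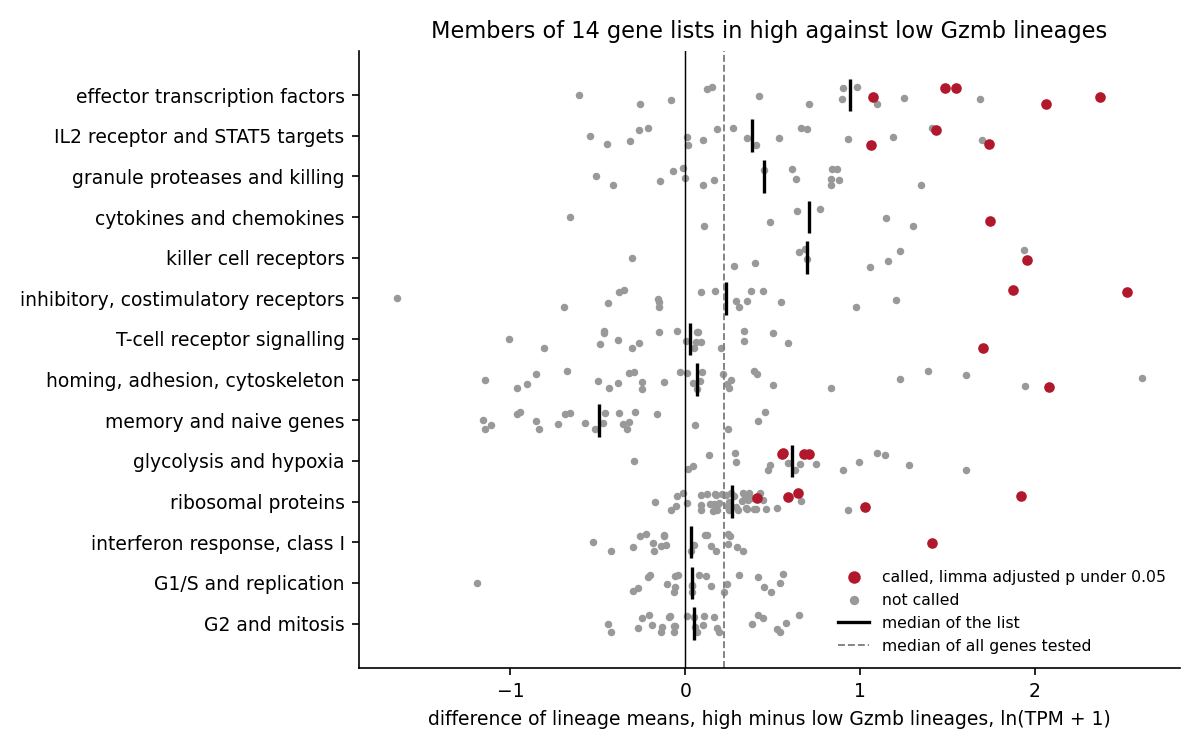
Differences of lineage means in ln(TPM + 1), high minus low, for the tested members of 14 gene lists, with called genes in red, list medians as black bars and the median of all genes, 0.22, as a dashed line. Effector transcription factors had the highest median at 0.94, and memory and naive genes the lowest at -0.49.

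The T-cell function list that the study compiled held 4 called genes besides Tbx21. Of its 141 tested members 5 were called higher (3.55%) and 0 lower, with a median of 0.09, so its share was close to that of all genes. Gadd45g, a stress gene that activated T-cells induce, ran from 0.00 to 3.09 in low with a median of 1.61 and from 1.24 to 6.55 in high lineages with a median of 4.50, 10 of which were above the highest low lineage. Its difference of 2.89 ± 0.53, an 18.1-fold ratio on the TPM + 1 scale, had a limma adjusted p of 0.00145 and was called in 46 of 47 alternative fits. Hspd1, the mitochondrial chaperonin HSP60, differed by 1.25 ± 0.24 (limma adjusted p = 0.00224), and Ctps, a CTP synthase, by 1.43 ± 0.39 (limma adjusted p = 0.0319). Zbtb32, a zinc finger repressor of activated lymphocytes, differed by 2.35 ± 0.65 (limma adjusted p = 0.036) and was called in 18 of 47 alternative fits.

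Only 6 genes were higher in low lineages. Xist ran from 0.07 to 5.12 in low with a median of 4.26 and from 0.00 to 4.84 in high lineages with a median of 0.07, where the 4 lineages of both kinds made up the upper end (difference -2.73 ± 0.61, limma adjusted p = 0.00917). Scml4, a Polycomb family gene, ran from 0.00 to 2.35 in low with a median of 1.41 and from 0.00 to 0.89 in high lineages with a median of 0.00, and was above 0 TPM in 19 of 30 low against 7 of 35 high cells (difference -1.11 ± 0.26, limma adjusted p = 0.0121). Ms4a6b, a membrane protein of T-cells, ran from 5.36 to 6.67 in low and from 2.40 to 6.19 in high lineages, so that the low lineages were narrow and the high ones wide (difference -1.27 ± 0.36, limma adjusted p = 0.0427). Add1, an adducin of the membrane skeleton, differed by -1.33 ± 0.36, Sp100, a nuclear body protein, by -1.14 ± 0.32, and the zinc finger gene Zfp119a by -1.34 ± 0.35, with limma adjusted p-values of 0.0313, 0.0349 and 0.0262. All 6 overlapped between the groups. Among the Y-linked genes Eif2s3y differed by 2.64 ± 0.46 and Ddx3y by 0.87 ± 0.25 (limma adjusted p = 0.00101 and 0.0387). In the low group Eif2s3y was above 0 only in the lineage of CD8_36, and Ddx3y was at 0 in every low lineage. Ddx3y passed the gene filter only through cells of the high and middle lineages, and Eif2s3y nearly so. Both calls therefore describe where these genes were detected, and they run along the split of the groups in sex-linked transcripts.

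Between the cells of a lineage, likeness to Gzmb was weak. Over 90 cells of 27 lineages of 2 or more cells, Spearman's rho between the deviations of a gene and of Gzmb from their lineage means had a median of 0.06 for the 346 genes called higher and of 0.00 for all 9996 genes, and it was positive in 236 and 5070 of them. The 5 genes most like Gzmb by this measure were Armc6 at 0.43, Pkp4 at 0.42, Orc2 at 0.41, Dbt at 0.41 and Hgsnat at 0.39, and the 5 most opposed were Stag2 at -0.48, Prkrir at -0.42, Rgcc at -0.41, Wdr24 at -0.40 and Ipp at -0.39. None of these 10 was called between low and high lineages. The cells of a lineage share a founder and the points share library depth, so these values are a description.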

How the data were processed

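Single CD8+ T-cells and L1210 cells had been sequenced by the authors with Smart-Seq2 and paired reads of 30 bases, and RSEM 1.2.3 with mm10 and UCSC genes had given the deposited TPM, a transcript abundance scaled by length and library, for 23420 names, 27 of them turned into dates. TPM have the same sum in every library and keep no depth.

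Doublets (4 CD8 libraries) and 5 libraries with under 1000 genes above 0 TPM were left out. Lineages were cells with mutual sister or cousin labels, and a one-sided cousin label of CD8_65 was not used. Values were ln(TPM + 1), with a pseudocount of 1 TPM, averaged per lineage. Genes above 1 in more than 10% of the 97 cells were fitted with limma 3.58.1 (R 4.3.3, trend, low and high lineages only), with Benjamini-Hochberg adjustment at 0.05. Library measures were compared with 2-sided exact permutation tests in scipy 1.17.1. The steps were tested on simulated data. Named were the 12 higher genes of lowest p, up to 12 lower ones, and the leading or defining members of each list, the rest being said to be chosen after their values were seen. Members and lists were chosen with earlier results of these data known. Alternatives covered the pseudocount, filter, test, lineage summary, minimum of detected genes, covariates, group limits, scaling and left-out lineages. Centring, leaving out the lineages of both kinds of sex-linked transcripts or that of CD8_83 for those reasons, the range of 5000 to 8000 detected genes and the comparisons with middle lineages were added after seeing the data. Promoters are RefSeq sequences on GRCm38.p6, and gene positions are from GENCODE on GRCm38. A few list members are not reported here.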

Additional observations from a re-analysis of the deposited data

Results flagged for a closer look

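Dixon's criterion, which chance meets in about 1 in 20 groups of normally distributed values, was applied within the 9 low lineages only. In 11 groups of lineage means, 10.9% of those tested, a single low lineage stood apart from the others. Genes at or near 0 in most low lineages, such as Eif2s3y and Ifng, do not follow that rate, so the 2 shares cannot be compared. The high and middle lineages were not screened in this way. The low lineage of CD8_36 did so in 3 sex-linked genes, with Xist at 0.074 where the other 8 lay between 3.39 and 5.12, Eif2s3y at 1.95 where the others were at 0 and Uty at 0.741 where the others reached 0.07. The low lineage of CD8_49 had Zfp119a at 4.21 against at most 2.16, Tpi1 at 1.66 against at least 4.42 and Tk1 at 1.62 against at least 4.67. Fasl was 1.39 in the lineage of CD8_65 against at most 0.70, and Rpl38 was 4.17 in that of CD8_5 against at least 5.46. Cd79a was 1.12 in the lineage of CD8_9 against at most 0.54, and Eomes was 3.44 in that of CD8_1 against at most 1.69. Ifng was 0.885 in the lineage of CD8_51 and listed at 0 in the other 8.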

How the results depend on the processing

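No paired analysis was possible because the replicate numbers only number the cells and low and high lineages are parts of 1 group of samples. The main comparison called 352 genes, 346 of them higher and 6 lower in high lineages, 27 of them members of the gene lists. The numbers in all, higher, lower and of list members were 22, 22, 0 and 3 in lineages with Xist alone or with both kinds (8 against 4), 153, 121, 32 and 7 in lineages without Xist (1 low against 8 high), and 23, 22, 1 and 5 with high lineages from 8 on. In the same order they were 166, 113 and 53 (list members within 1.5 times) with detected genes as a covariate, 161, 157, 4 and 9 with Xist as a covariate, 99, 77, 22 and 9 after centring, 220, 218, 2 and 12 without a gene filter, 194, 188 and 14 members with a pseudocount of 10 TPM, 197, 194, 3 and 10 by the exact rank-sum test, and 229, 221 and 15 members without Rn45s. Without the 4 high lineages of both kinds they were 181, 180 and 1, and also without the lineage of CD8_83 they were 173, 172 and 1. The middle against low comparison among lineages with Xist alone gave 1, 1, 0 and 0, and high against middle among those with Y-linked transcripts alone 0 throughout. Lower genes alone came to 3 with a filter of more than 50% of cells, 11 with lineages of 2 or more cells, 10 with at least 4000 detected genes, 21 with hours as a covariate, 14 with low lineages under 4, and 36 in cells of 5000 to 8000 genes. List members alone came to 14 without the trend, 16 with lineage medians and 46 with hours as a covariate. The cause was not tested.

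Of the calls, 98.3% were in the higher direction in the main comparison, 68.1% with detected genes as a covariate and 77.8% after centring. Leaving out 1 lineage gave 219 to 412 genes in all, 216 to 407 higher, 3 to 11 lower and 14 to 34 list members. The 11 lower genes were found without the high lineage of CD8_80, and 3 were found without CD8_49, CD8_59 or CD8_91. The detected genes differed by 1222 to 1606 (exact permutation p from 0.00141 to 0.0165), the hours by -1.53 to -0.43 (p from 0.121 to 0.655, same exact test) and the Rn45s share by -8.28 to -5.30 percentage points (exact permutation p from 0.0182 to 0.0817). The Rn45s difference was -7.11 points without the lineages of both kinds (exact permutation p = 0.0638) and -6.64 without that of CD8_83 (exact permutation p = 0.0527).

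Among named genes, Scml4 changed sign to 0.22 and Bst2 to -0.27 in lineages without Xist, where the 1 low lineage had no replicate and was assumed to vary like the high ones. In that alternative 322 of the 352 called differences kept their direction. All 352 kept it in the other low against high alternatives, except that 311 could be tested, and kept it, with a filter of more than 50% of cells. With 9 and 12 lineages, and no mouse named, small differences were not detectable here.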

Other observations

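Where the comparison was limited to lineages with Xist, 8 low lineages stood against the 4 high lineages that also held Y-linked transcripts, and limma called 22 genes, all higher in the high lineages. They were named after their values were seen. Cdkn1a, the cell cycle inhibitor p21, had the lowest p, with a difference of 4.10 ± 0.64 (SE, limma adjusted p = 0.00144). Fth1 and Ftl1, the chains of the iron store ferritin, differed by 1.05 ± 0.23 and 1.05 ± 0.20, and Socs1, a feedback inhibitor of cytokine signalling, by 2.04 ± 0.46 (limma adjusted p from 0.00936 to 0.0406). Of the 22 genes, 18 were also called over all lineages, and Timm8a1, Prdx4, Dnph1, Batf3 and Gadd45g were among the 22. Batf3 was at 0 in all low lineages, so its call there also describes where it was detected. The 4 high lineages held libraries of mixed sex-linked transcripts, whose part in these values was not tested.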
